A study of Mus musculus with 8 samples.

Results

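The 10 genes described here, Rassf1, Cdkn2a, Cdkn2b, Brca1, Rarb, Apc, Timp3, Gstp1, Dapk1 and Hic1, are tumor suppressors whose promoters are often reported as methylated in human breast cancer (BC). They were taken by name, with earlier results of these data known, and no measured value enters the rule. DNA methylation was read at single cytosines of CpG dinucleotides, each strand apart, and a cytosine was used where it had 10 or more reads in all 8 libraries, which is called shared below. Of 567907 shared cytosines in the series, 330 lay in the gene bodies or the 2000 bp upstream of 8 of the 10 genes, while Cdkn2a and Cdkn2b had 0. Among 21853 protein-coding genes, 16648 had at least 1 shared cytosine.

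The tumors came from NIC-5231, a mouse line established from ErbB2-driven mammary tumors, implanted in the mammary fat pad of 5- to 7-week-old immunodeficient NSG mice. Mice received vehicle (labelled DMSO), C29, 5-azadC or the 2 drugs together, injected intraperitoneally every 2 days, which makes 4 groups; the dose of C29 was 10 mg/kg and that of 5-azadC 1 mg/kg. C29 inhibits the nuclear receptor ERRα, and 5-azadC (decitabine) inhibits DNA methyltransferases. Each group of 5 mice gave 2 reduced representation bisulfite sequencing (RRBS) libraries, and each library held the pooled tumor DNA of 2 mice, so that 8 libraries of a single cell line were compared. DNA of host cells in the tumors was not separated, and with methylation data alone the cell types could not be checked against expressed markers. Libraries held 51359825 to 81299065 reads over cytosines, with a median of 21 to 30 reads per cytosine. Spike-in controls were methylated at 0.216 to 0.329% (unmethylated control) and at 97.5 to 98.3% (methylated control). Over all shared cytosines, methylation was 33.6 to 34.9% in the 4 libraries without 5-azadC and 30.5 to 31.6% in the 4 with it.

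Methylation of a CpG-rich promoter is associated with stable silencing of its gene, and in cancer cells this state can stand in for a mutation of a tumor suppressor. Gene bodies are by contrast commonly methylated in both active and inactive genes. 5-azadC is incorporated into DNA, where it traps DNA methyltransferases, so that methylation is lost as cells divide. Each gene was therefore divided into the start-site region, from 1000 bp upstream to 500 bp downstream of any start of a protein-coding transcript, the remaining upstream part, and the remaining body. A region with a mean of 50% or more in the vehicle libraries is called methylated and one under 10% low.

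In vehicle tumors, 6 of the 8 genes had low start-site regions. Rassf1, Brca1, Rarb, Apc, Gstp1 and Dapk1 ranged from 0 to 4.27% (mean of 2 libraries), and 126 of the 146 shared start-site cytosines were under 10%. Timp3 and Hic1 were the exceptions, at 32.9% and 36.2%, and 0 genes reached 50%. Low start-site regions were also the rule over all genes, since 74.2% of 12319 regions were under 10% and 7.67% were at 50% or more. The bodies showed the opposite state. 138 of 180 shared body cytosines were at 50% or more in vehicle tumors, and 5 of the 6 bodies with 3 or more shared cytosines were methylated, against 67.3% of 10811 bodies of all genes, while the Rassf1 body was low, as were 9.44% of all bodies. All 4 shared cytosines of the remaining upstream part, 1 in Rassf1 and 3 in Timp3, were at 50% or more.

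**Figure D1:**
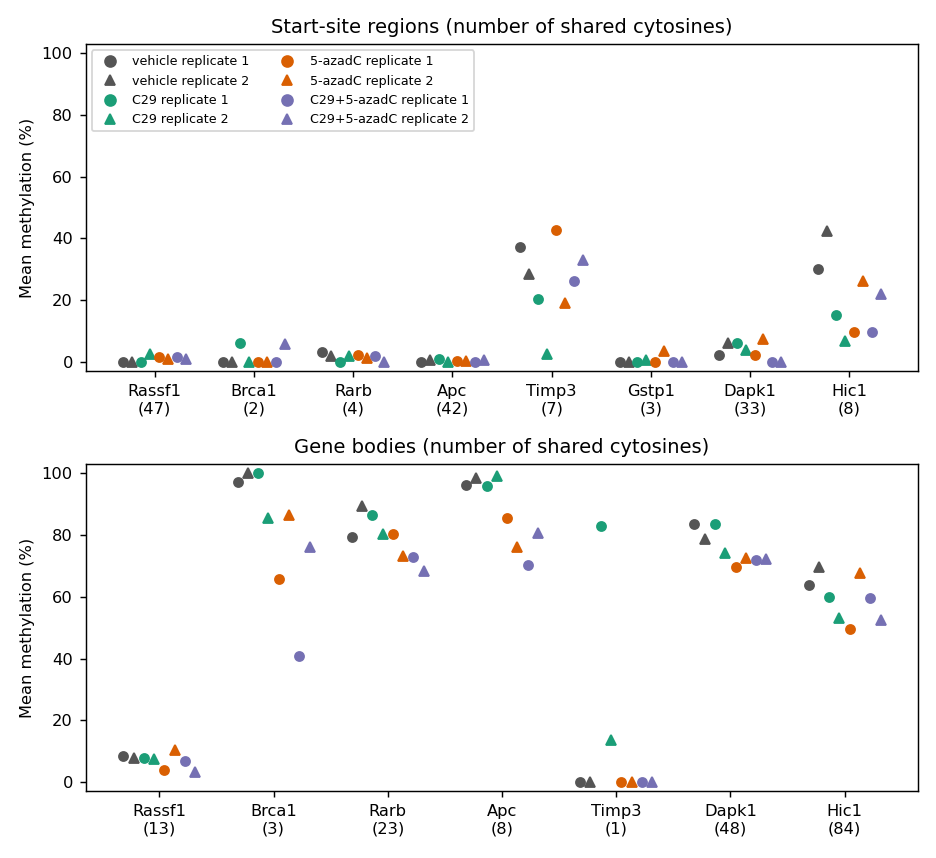
Methylation of the members' start-site regions and bodies in each of the 8 libraries, in percent; each point is 1 library, colored by group. Start-site regions of Rassf1, Brca1, Rarb, Apc, Gstp1 and Dapk1 sit between 0 and 7.35% in every library, those of Timp3 and Hic1 spread from 2.48 to 42.7%, and the bodies of Brca1, Rarb, Apc, Dapk1 and Hic1 lie at 40.9% and above.

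The sequences that carry these states are shown on the strand of the gene, from the GRCm38.p6 assembly, with the CpGs measured in all 8 libraries in capitals; CpGs left in lower case were not shared. The low promoter state is shown for the shorter transcript of Rassf1 and for Rarb, which encodes retinoic acid receptor β. The longer product of Rassf1, RASSF1A, is a scaffold that activates MST kinases, and its start (107551555) lies outside the window shown. The Rassf1 window, chr9:107554333-107554612 (+ strand), lies upstream of the shorter transcript, and 12 of its 26 CpGs were measured. The Rarb window, chr14:16575905-16576080 (- strand), lies upstream of the shorter transcripts, with all 4 CpGs measured. The intermediate state is shown for Timp3, a secreted inhibitor of metalloproteinases, with 4 of 17 CpGs measured at chr10:86300162-86300401 (+ strand). The fourth window, chr11:75168123-75168402 (- strand), lies at a further RefSeq start of Hic1, which encodes a transcriptional repressor, and has 5 of 26 CpGs measured.
Rassf1: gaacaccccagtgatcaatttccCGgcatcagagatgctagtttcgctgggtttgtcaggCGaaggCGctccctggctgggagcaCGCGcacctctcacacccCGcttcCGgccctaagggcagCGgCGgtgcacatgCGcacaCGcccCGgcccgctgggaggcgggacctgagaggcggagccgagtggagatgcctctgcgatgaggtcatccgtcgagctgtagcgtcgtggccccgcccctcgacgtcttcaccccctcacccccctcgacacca
Rarb: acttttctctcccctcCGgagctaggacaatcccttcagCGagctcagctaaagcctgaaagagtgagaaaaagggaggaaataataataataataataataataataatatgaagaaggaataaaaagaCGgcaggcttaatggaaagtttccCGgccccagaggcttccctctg
Timp3: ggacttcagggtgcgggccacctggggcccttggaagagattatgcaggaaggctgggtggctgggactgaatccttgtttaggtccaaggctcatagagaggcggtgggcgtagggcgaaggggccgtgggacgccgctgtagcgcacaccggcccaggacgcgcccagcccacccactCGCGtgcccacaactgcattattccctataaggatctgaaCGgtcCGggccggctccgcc
Hic1 RefSeq start: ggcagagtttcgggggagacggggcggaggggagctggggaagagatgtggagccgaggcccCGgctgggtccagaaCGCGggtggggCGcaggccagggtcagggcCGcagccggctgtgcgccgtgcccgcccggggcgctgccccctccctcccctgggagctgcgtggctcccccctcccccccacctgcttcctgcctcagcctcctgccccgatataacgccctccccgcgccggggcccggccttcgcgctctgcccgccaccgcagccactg

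Rassf1 (chr9:107551555-107562267, + strand) had 47 shared start-site cytosines, 20 around the start of the RASSF1A transcript and 27 around that of the shorter transcript. All 47 were at 0% in both vehicle libraries. Over the start-site region methylation was 0 and 0% with vehicle, 0 and 2.57% with C29, 1.65 and 0.818% with 5-azadC, and 1.43 and 0.902% with both drugs, with 1603 to 2983 reads in a library. The mean over both starts was thus at most 2.57% in any library, and the groups overlapped (5-azadC difference 0.557 points, two-sided exact permutation test, p = 0.571, 4 libraries against 4). The 20 cytosines around the RASSF1A start alone were at 0 and 0% with vehicle and 0 and 6.05% with C29. They were at 3.87 and 0% with 5-azadC, and 3.37 and 2.12% with both drugs. In C29 replicate 2, the 38 cytosines with 10 or more reads around that start averaged 17.3%. The other libraries averaged 0 to 2.98% over their own such cytosines. The 17 cytosines of the sequence shown above were at 0% in 7 libraries and at 2.26% in 5-azadC replicate 2. Of the 13 shared body cytosines, 12 averaged 0.490% in vehicle tumors, and the last, in an intron where the gene Gm9917 also lies, was at 100% in both vehicle libraries, 100 and 98.8% with C29, 49.4 and 100% with 5-azadC, and 87.0 and 42.5% with both drugs. That cytosine overlapped between libraries with and without 5-azadC.

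Apc (chr18:34220924-34322552, + strand), the scaffold of the complex that marks β-catenin for degradation, had 42 shared start-site cytosines, all near the upstream promoter, where the annotated pseudogene Gm10548 overlaps on the other strand. Their mean stayed between 0 and 0.787% in all 8 libraries. Single cytosines reached at most 12.2% in vehicle tumors. The downstream Apc start had no shared cytosine, and its state was not measured here.

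Brca1 (chr11:101488764-101551955, - strand), which acts in repair of DNA breaks by homologous recombination, had only 2 shared start-site cytosines, at 0% in 6 libraries, 6.25% in C29 replicate 1 and 5.71% in the combination replicate 2. With a minimum of 5 reads, 9 cytosines were shared and their mean ranged from 0 to 1.39%. Gstp1 (chr19:4035407-4037985, - strand), a glutathione transferase that detoxifies electrophiles, had 3 shared start-site cytosines, at 0% in 6 libraries, 0.641% in C29 replicate 2 and 3.43% in 5-azadC replicate 2. Its near-identical paralog Gstp2 lies beside it, so the placement of its reads is uncertain. With a minimum of 5 reads, Gstp1 had 11 shared start-site cytosines, at 0.202 and 0% with vehicle, 0 and 0.175% with C29, 5.19 and 2.71% with 5-azadC, and 6.25 and 0.580% with both drugs. The 4 libraries given 5-azadC were then above the 4 others, by 3.59 points (two-sided exact permutation test, p = 0.0286), and all stayed low. The share of all genes above at this minimum is not given. Over each library's own cytosines with 10 or more reads, which differ between libraries, the groups overlapped. Means there were 1.59 and 0% with vehicle, 0 and 0.0712% with C29, 4.08 and 1.15% with 5-azadC, and 4.19 and 0.199% with both drugs. Rarb (chr14:16430839-16819156, - strand) had 4 shared start-site cytosines, all at the shorter transcripts, whose promoter is the one known to be methylated in BC. Their mean was 3.10 and 1.95% with vehicle, 0 and 2.04% with C29, 2.25 and 1.28% with 5-azadC, and 1.79 and 0% with both drugs, and the longer transcripts had no listed start-site cytosine. In all 3 genes the levels at the minimum of 10 reads were low in every library, and the groups overlapped.

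Dapk1 (chr13:60601947-60763191, + strand), a calmodulin-regulated kinase that promotes cell death, had a low start-site region with a partly methylated edge. The 17 shared cytosines within 250 bp upstream and 50 bp downstream of the RefSeq start were at 0% in 6 libraries, 0.0806% in C29 replicate 2 and 2.06% in 5-azadC replicate 2. Over all 33 start-site cytosines, methylation was 2.40 and 6.14% with vehicle, 6.06 and 3.75% with C29, 2.30 and 7.35% with 5-azadC, and 0 and 0% with both drugs. The level above 0 came mostly from 4 cytosines in an intron, 403 to 413 bp downstream of the start, close enough to share reads. These 4 were at 5.86 and 50.7% with vehicle, 30.6 and 26.1% with C29, 18.2 and 51.5% with 5-azadC, and 0 and 0% with both drugs. Both combination libraries were thus below the 6 others at these cytosines, which were set apart after their values were seen, while the libraries given 5-azadC alone overlapped with those without it. The lowest coverage among them was 10 reads.

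Timp3 (chr10:86300372-86349506, + strand) was partly methylated at its start. Its 7 shared start-site cytosines averaged 37.4 and 28.4% with vehicle, 20.5 and 2.48% with C29, 42.7 and 19.2% with 5-azadC, and 26.2 and 33.0% with both drugs. Each library had 144 to 535 reads there. C29 replicate 2 was the lowest and 5-azadC replicate 1 the highest, and libraries with and without 5-azadC overlapped throughout. The mean was 30.3% ± 10.0 (SD, n = 4) with 5-azadC and 22.2% ± 14.8 (SD, n = 4) without it, a difference of 8.09 points within the spread between libraries (two-sided exact permutation test, p = 0.429). The difference for C29 was -11.4 points (two-sided exact permutation test, p = 0.229). At a minimum of 5 reads, 16 start-site cytosines were shared, and the differences shrank to 0.327 points for 5-azadC and -1.82 points for C29. C29 replicate 1 (31.9%) was then above both vehicle libraries (30.9 and 30.6%). The 4 cytosines at the start itself, capitals in the Timp3 sequence, were at 48.5 and 33.9% with vehicle, 26.1 and 0% with C29, 38.4 and 25.3% with 5-azadC, and 24.3 and 48.8% with both drugs. These libraries also overlapped, and both C29 libraries were below both vehicle libraries. The highest of the 4 was at 54.9% in vehicle tumors. The mean of the 3 upstream cytosines, at -1682 to -1633 bp from the start, was 82.5 to 100% in every library. Timp3 lies within the larger gene Syn3 on the other strand.

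Hic1 (chr11:75164565-75169519, - strand), a p53 target gene that encodes a zinc finger repressor, had the most shared cytosines of the members, 92. Its 8 start-site cytosines averaged 30.0 and 42.3% with vehicle, 15.3 and 6.85% with C29, 9.59 and 26.1% with 5-azadC, and 9.68 and 21.9% with both drugs. Each library had 319 to 764 reads there. The 2 vehicle libraries were the highest of the 8, and each treated group was below both. The mean was 16.8% ± 8.47 (SD, n = 4) with 5-azadC and 23.6% ± 15.7 (SD, n = 4) without it, and the difference of -6.78 points was within the spread (two-sided exact permutation test, p = 0.457). For C29 the difference was -13.6 points (two-sided exact permutation test, p = 0.143). With the strands of a CpG summed, the differences were -0.924 points for 5-azadC and -4.72 points for C29. Between 2 vehicle libraries and 2 libraries of 1 treatment, the smallest exact p is 0.333, so these single comparisons cannot reach 0.05.

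Within the Hic1 start-site region, the 6 cytosines of the first coding exon were at 34.1 and 56.4% with vehicle, 20.4 and 9.13% with C29, 12.8 and 34.0% with 5-azadC, and 8.82 and 29.3% with both drugs. All 6 treated libraries were below both vehicle libraries, 5-azadC replicate 2 only just. The GENCODE start of Hic1 coincides with the start codon, whereas RefSeq places starts upstream of it (75170255) and within the gene (75168152). The only shared cytosine near the upstream RefSeq start was at 2.27% in vehicle replicate 1, at 4.92% in 5-azadC replicate 2, and at 0% in the 6 other libraries. The 5 cytosines at the downstream RefSeq start averaged 82.5 and 100% with vehicle, 100 and 62.9% with C29, 51.8 and 87.4% with 5-azadC, and 100 and 22.2% with both drugs. The order along the gene was thus from about 0 before the annotated start, through intermediate levels, to high levels at the downstream start. The intermediate part held the first coding exon and 15 cytosines 493 to 616 bp downstream of the start, at 31.6% with vehicle. At the downstream start, combination replicate 2 was the lowest, while combination replicate 1 was at 100%, as were vehicle replicate 2 and C29 replicate 1. Further into the gene, 16 cytosines 4102 to 4210 bp downstream of the start were again intermediate, at 40.1% with vehicle. With the RefSeq starts, a choice made after seeing the data, the start-site region held 24 cytosines with a vehicle mean of 49.7%. C29 replicate 1 (51.9%) and 5-azadC replicate 2 (47.6%) were then above vehicle replicate 1 (42.6%), so that the vehicle libraries were no longer the highest pair.

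**Figure D2:**
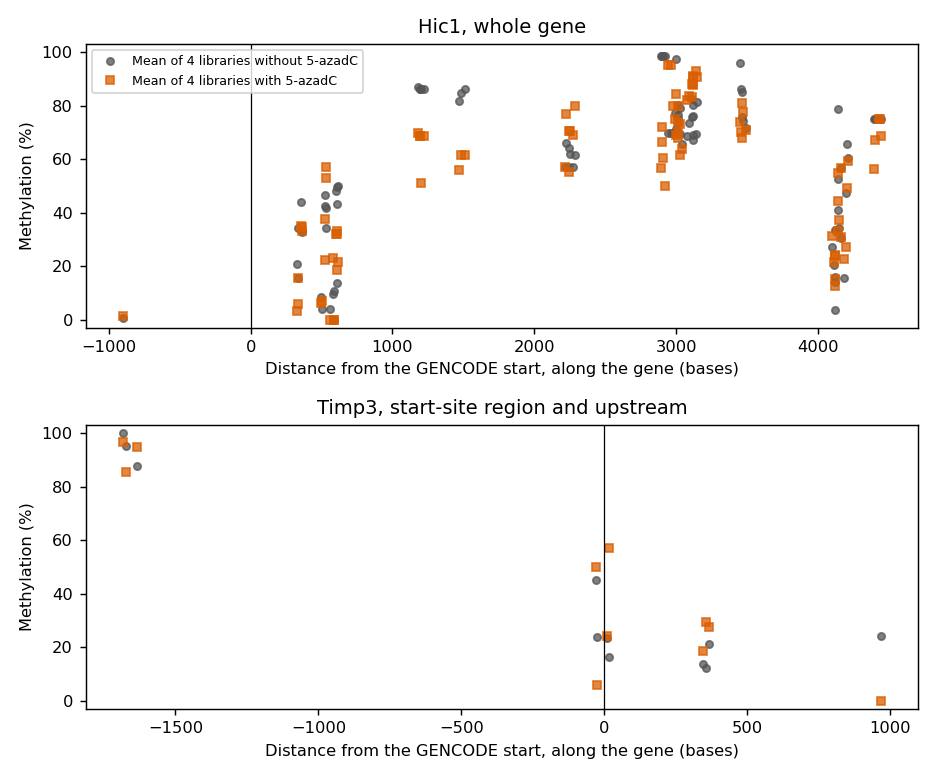
Methylation of single shared cytosines, in percent, against the distance from the GENCODE start along Hic1 (top) and around the start of Timp3 (bottom), in bases; circles are means of the 4 libraries without 5-azadC and squares of the 4 with it. Hic1 is near 0 at -897 bp from the start and intermediate within the first coding exon. Further in it is mostly high, with intermediate stretches at 493 to 616 bp and at 4102 to 4210 bp. Timp3 is intermediate at its start and above 80% in its upstream part.

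Cdkn2a (chr4:89274471-89294653, - strand), which encodes the CDK4/6 inhibitor p16Ink4a and the Mdm2 inhibitor ARF, and its neighbor Cdkn2b (chr4:89306299-89311039, - strand), which encodes the CDK inhibitor p15Ink4b, had no shared cytosine. Their start-site regions were not short of CpGs, since 194 and 60 cytosines were listed there. The listed cytosines had a mean of 7.22 reads in Cdkn2a and 4.68 in Cdkn2b, against a median of 24.5 over 12441 autosomal genes, of which 0.948% and 0.322% were lower. The other 8 members had 20.7 to 29 reads. By library the mean ranged from 3.22 to 11 reads in Cdkn2a and from 2.23 to 7.95 in Cdkn2b, so all 8 libraries were shallow there. The neighboring genes Mtap, Dmrta1 and Klhl9 had 16.2, 33.4 and 24.9 reads. The copy number of the locus was not tested.

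**Figure D3:**
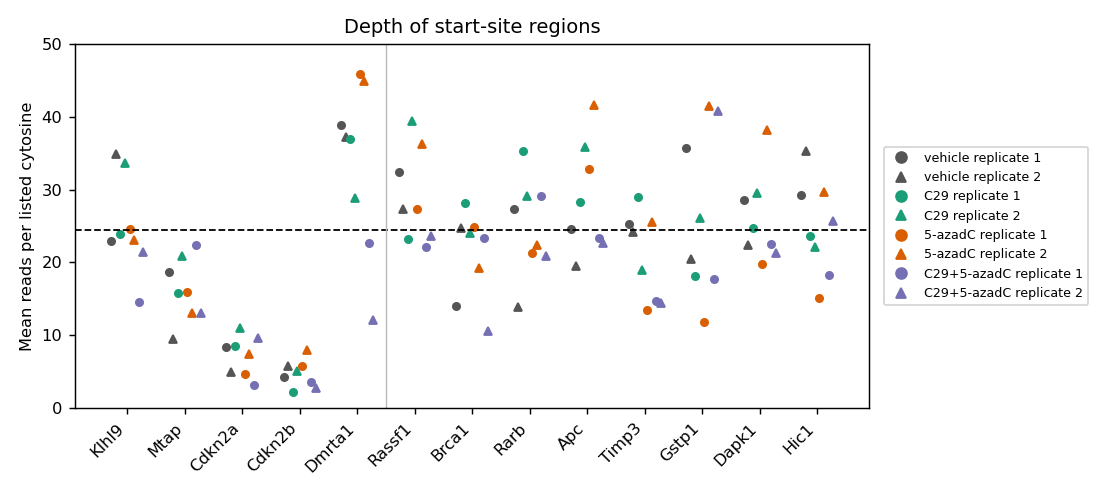
Mean reads per listed start-site cytosine for the 10 members and 3 neighbors of Cdkn2a, 1 point per library, with the median of 12441 autosomal genes (24.5 reads) as a line. Cdkn2a and Cdkn2b lie between 2.23 and 11 reads in all 8 libraries.

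Where Cdkn2a and Cdkn2b could be read, their start-site regions were low. For Cdkn2a this rests mostly on the upstream of its 2 starts (89294653), which held 181 of the 194 listed cytosines. The downstream start (89282192) held 13, of which 0 to 8 had 10 or more reads in a library, so its state was barely measured. In single libraries, 36 to 88 start-site cytosines of Cdkn2a had 10 or more reads, and 0 to 5.03% of their reads were methylated. The value of 5.03% came from C29 replicate 1 (75 of 1490 reads, 95% Wilson interval 4.03 to 6.26%). For Cdkn2b, 10 to 27 start-site cytosines had 10 or more reads, and 0 to 7.03% of reads were methylated, the highest again in C29 replicate 1 (9 of 128 reads, 95% Wilson interval 3.74 to 12.8%). These cytosines were not the same in each library, so no comparison between groups was made. At a minimum of 5 reads in all 8 libraries, Cdkn2a had 5 start-site cytosines, at 0% in every library, and Cdkn2b none.

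At the minimum of 10 reads with all 8 libraries, 5-azadC did not separate any start-site region of the members. Of these, 7 had 3 or more shared cytosines, and 0 of the 7 had all 4 libraries given 5-azadC below the 4 others. Over all genes, 2.15% of 12319 regions were below. Above were 0 of 7 (0.609% of all genes), and 0 were separated by C29 (1.05% of all genes were below and 0.69% above). For 7 regions, 0 is close to these shares. In vehicle tumors 5 of the 7 were low, with little room to fall. By the overdispersion-corrected F test on summed reads, adjusted over all genes by the Benjamini-Hochberg method, 0 of 7 were called for either drug at q below 0.05 (0% of all genes), and 0 of 7 had an unadjusted p below 0.05 (12.2% of all genes for 5-azadC, 11.3% for C29). Limma on the region means also gave 0 calls and 0 unadjusted p below 0.05 among the members (4.68% of all genes for 5-azadC, 3.42% for C29). Regions of 1 gene vary between libraries by more than counting error: in simulated data with a shift of 35 points, the F test recovered 46.5% of 200 shifted start-site regions among 12319 at an overdispersion of 0.02 and 0% at 0.08, and limma recovered 80.0% and 0%. The median overdispersion was 0.0413 over the 2303 start-site regions with a vehicle mean of 20% or more, to which Timp3 and Hic1 belong. The shifted regions were drawn from more methylated ones than those of the members. The recovery rates therefore do not give the power at Timp3, Hic1 or the low regions.

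Most member bodies were on average lower with 5-azadC, as were those of most genes. Of 6 bodies with 3 or more shared cytosines, Apc and Dapk1 (33.3%) had all 4 libraries given 5-azadC below all 4 others, against 18.1% of 10811 bodies of all genes, and 0 had them above (0.148% of all genes). The median difference was -9.33 points over these 6 bodies and -6.02 over all genes (-8.07 over the 7281 bodies with a vehicle mean of 50% or more). By the F test, 0 of 6 were called at q below 0.05 (0% of all genes), and 3 of 6 had an unadjusted p below 0.05 (22.9% of all genes). Limma called 0 of 6 and gave 4 an unadjusted p below 0.05 (26.6% of all genes).

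The 8 shared body cytosines of Apc averaged 96.2 and 98.6% with vehicle, 96.1 and 99.2% with C29, 85.6 and 76.2% with 5-azadC, and 70.5 and 80.6% with both drugs. Every library given 5-azadC was lower than every other library. The mean was 78.2% ± 6.43 (SD, n = 4) with 5-azadC and 97.5% ± 1.59 (SD, n = 4) without it, a difference of -19.3 points (two-sided exact permutation test, p = 0.0286, below which 4 values against 4 cannot go). Over all genes the difference did not pass the F test (Benjamini-Hochberg q = 0.129) or limma (q = 0.0901). Apc thus held a start-site region near 0 in every library and a body that was lower with 5-azadC.

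The 48 shared body cytosines of Dapk1 averaged 83.7 and 78.8% with vehicle, 83.7 and 74.1% with C29, 69.8 and 72.6% with 5-azadC, and 71.9 and 72.2% with both drugs. The groups did not overlap, although C29 replicate 2 at 74.1% and 5-azadC replicate 2 at 72.6% were close. The mean was 71.6% ± 1.26 (SD, n = 4) with 5-azadC and 80.1% ± 4.58 (SD, n = 4) without it, a difference of -8.48 points (two-sided exact permutation test, p = 0.0286; F test, Benjamini-Hochberg q = 0.0791; limma q = 0.143). With a start-site region of 500 bp upstream to 200 bp downstream, the Dapk1 groups overlapped (-8.38 points), and the Apc difference was -4.26 points, because unmethylated cytosines near the start then counted as body.

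Brca1 and Rarb were lower with 5-azadC on average, and their groups overlapped. The 3 shared body cytosines of Brca1 averaged 97.2 and 100% with vehicle, 100 and 85.4% with C29, 66.0 and 86.4% with 5-azadC, and 40.9 and 76.1% with both drugs. Only 5-azadC replicate 2 lay within the range of the libraries without 5-azadC. The means were 67.3% ± 19.5 (SD, n = 4) and 95.7% ± 6.95 (SD, n = 4), a difference of -28.3 points (two-sided exact permutation test, p = 0.0571; F test, Benjamini-Hochberg q = 0.196). It overlapped only with C29 replicate 2, so leaving out either library removed the overlap by construction. The difference was then -34.7 points without 5-azadC replicate 2 and -31.7 points without C29 replicate 2. The groups also did not overlap with pooled reads (-18.5 points) or with the strands of a CpG summed (-26.9 points). They overlapped at a minimum of 5 reads (-27.5 points) and at 20 reads, where 1 cytosine was left (-11.2 points). The 23 shared body cytosines of Rarb averaged 79.4 and 89.6% with vehicle, 86.4 and 80.4% with C29, 80.4 and 73.3% with 5-azadC, and 73.1 and 68.3% with both drugs. Here 5-azadC replicate 1 lay within the range of the others, and the difference was -10.2 points (two-sided exact permutation test, p = 0.0857; F test, Benjamini-Hochberg q = 0.271). At a minimum of 5 reads the Rarb groups did not overlap (-10.7 points). Leaving out 5-azadC replicate 1 removed the overlap by construction (-12.4 points). With a minimum of 20 reads, Rarb kept 4 body cytosines and the difference was 13.0 points in the other direction.

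The body of Hic1, with 84 shared cytosines, did not separate. It was at 63.7 and 69.6% with vehicle, 60.0 and 53.1% with C29, 49.6 and 67.9% with 5-azadC, and 59.5 and 52.5% with both drugs. The 2 libraries of 5-azadC alone were the lowest and the second highest, and the difference of -4.23 points was within the spread (two-sided exact permutation test, p = 0.429). The Rassf1 body, at 3.27 to 10.4%, carried its only methylated cytosine at its end, described above. The single shared body cytosine of Timp3 was at 0% in 6 libraries, 82.9% in C29 replicate 1 and 13.8% in C29 replicate 2, on 18 to 99 reads. At a minimum of 5 reads, 3 body cytosines of Timp3 averaged 66.7 and 57.7% with vehicle and 73.3 and 22.8% with C29. They were at 0 and 44.6% with 5-azadC and 14.5 and 66.7% with both drugs, and libraries with and without 5-azadC overlapped.

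**Figure D4:**
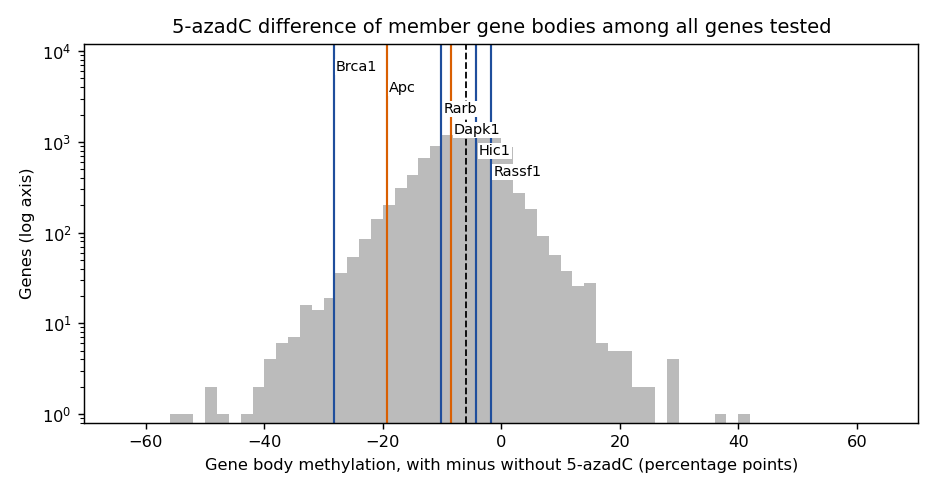
Difference in body methylation between the 4 libraries given 5-azadC and the 4 others, in percentage points, with bars for the number of genes among 10811 (log axis) and a line for each of the 6 members with 3 or more shared body cytosines. Orange lines mark Apc (-19.3) and Dapk1 (-8.48), whose groups do not overlap, blue lines the others, and the dashed line the median of all genes (-6.02).

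At the minimum of 10 reads with all 8 libraries, no member region was separated by C29. At 5 reads, the 4 upstream cytosines of Timp3 were at 72.7 and 90.2% with C29 and 90.6 and 86.9% with both drugs, below 95.1 and 100% with vehicle and 100 and 96.0% with 5-azadC (-12.7 points). At 10 reads C29 separated 0 of the 6 bodies (0.638% of all genes were below, 0.832% above), and by the F test 0 of 6 were called for C29 (0% of all genes) and 0 of 6 had an unadjusted p below 0.05 (6.35% of all genes); limma called 0 (0.00925% of all genes) and gave 0 an unadjusted p below 0.05 (5.2%). The test of whether the 5-azadC difference was unequal with and without C29 called 0 of the 13 regions (0% of all genes), and 0 of 13 had an unadjusted p below 0.05 (4.85% of all start-site regions and 5.6% of all bodies). Cytosine by cytosine, counts of calls against vehicle were close to the background except for the combination. The logistic test at q below 0.01 and 25 points called 33 of 330 member cytosines with C29 (10.7% of all cytosines were called), 43 with 5-azadC (13.1%) and 68 with both drugs (13.5%). As shares of the 330 these are 10.0%, 13.0% and 20.6%. With C29, 25 were lower and 8 higher, where 5.93% and 4.73% of all cytosines were lower and higher. With 5-azadC, 29 were lower and 14 higher, against 10% and 3.12% of all cytosines. With both drugs, 58 were lower and 10 higher, against 9.51% and 3.99%. Hic1 held 37 of the 68 calls of the combination and Dapk1 15, and neighbors that share reads were called together: the 68 calls lay in 27 of the 59 clusters of cytosines within 100 bp of each other.

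The same test also called member cytosines between the 2 libraries of 1 group. It called 53 between the vehicle libraries (15.9% of all cytosines), 56 between the C29 libraries (16.3%), 72 between the 5-azadC libraries (18.4%) and 68 between the combination libraries (19.7%). Pooled reads of 2 libraries therefore do not cover the spread between them. With the overdispersion-corrected F test at the same thresholds, 0 of 330 were called in any of the 3 comparisons (12, 8 and 8 at an unadjusted p below 0.05). With 2 libraries against 2 and adjustment over all cytosines, that test could hardly give a call, so no conclusion is drawn from the 0. Hic1 accounted for 32 to 34 of the calls within each group.

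All 4 libraries given 5-azadC were below all 4 others at 9 of 330 member cytosines (2.73%, against 1.52% of all cytosines) and above them at 2 (0.213% of all cytosines). All 11 lay in gene bodies. Windows of 41 bases that hold them, apart from the Apc one, are shown on the gene strand, GRCm38.p6, with all shared CpGs in capitals, to give the context of cytosines that were lower or higher. Where 2 of them lie close together, 1 window holds both. The lower ones were in Brca1 (chr11:101508005-101508045, - strand), Rarb (chr14:16724248-16724288, - strand), Dapk1 (chr13:60696335-60696375, chr13:60697235-60697275, chr13:60725230-60725270 and chr13:60749219-60749259, + strand) and Hic1 (chr11:75166574-75166614, - strand). The 2 higher ones lie within a single Hic1 window (chr11:75166380-75166420, - strand).
Brca1 coding exon: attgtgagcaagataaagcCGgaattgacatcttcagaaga
Rarb intron: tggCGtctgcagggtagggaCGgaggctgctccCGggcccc
Dapk1 coding exon: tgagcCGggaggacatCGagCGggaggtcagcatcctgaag
Dapk1 intron: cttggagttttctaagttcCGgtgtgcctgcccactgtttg
Dapk1 second intron site: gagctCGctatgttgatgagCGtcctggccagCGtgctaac
Dapk1 late coding exon: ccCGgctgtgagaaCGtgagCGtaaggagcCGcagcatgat
Hic1 coding exon, lower: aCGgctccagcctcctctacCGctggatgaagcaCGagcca
Hic1 coding exon, higher: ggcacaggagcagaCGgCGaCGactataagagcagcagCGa

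The largest of these differences was in a Rarb intron (position 16724268). This cytosine was at 93.5 and 100% with vehicle, 75.9 and 100% with C29, 0 and 39.0% with 5-azadC, and 64.3 and 37.5% with both drugs, and the means differed by -57.2 points. The 10 shared cytosines around it averaged 89.6% with vehicle and 65.4% over the 4 libraries given 5-azadC. When both strands of the CpG were summed, the groups overlapped (-44.6 points). The next was in an Apc coding exon (position 34269082), at 100 and 100% with vehicle, 100 and 93.4% with C29, 72.3 and 20.4% with 5-azadC, and 2.08 and 71.7% with both drugs, on 48 to 177 reads. Its level in libraries given 5-azadC thus ranged from nearly lost to mostly kept.

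In Brca1 the separated cytosine (position 101508025, coding exon) was at 100% in all 4 libraries without 5-azadC, at 76.7 and 93.8% with 5-azadC, and at 23.3 and 77.6% with both drugs. Dapk1 held 5 of the 9, 3 in coding exons and 2 in introns, with differences from -20.1 to -44.5 points. The best covered in its lowest library (position 60697255, intron, 47 to 95 reads) was at 95.5 and 67.4% with vehicle, 100 and 98.9% with C29, 38.3 and 57.1% with 5-azadC, and 33.9 and 61.0% with both drugs. In Hic1, position 75166594 was at 100 and 93.3% with vehicle, 100 and 100% with C29, 27.4 and 14.7% with 5-azadC, and 90.9 and 67.3% with both drugs, and the means differed by -48.2 points. There the libraries given 5-azadC alone were the lowest, below those given both drugs.

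The 2 cytosines that were higher lay close together in a Hic1 coding exon. Position 75166400 was at 75.6 and 75.8% with vehicle, 67.4 and 57.1% with C29, 80.8 and 83.5% with 5-azadC, and 100 and 100% with both drugs (22.1 points). Position 75166403 differed by 20.9 points, and for both the groups overlapped when the strands of a CpG were summed. The 4 libraries given C29 were below the 4 others at 6 of 330 member cytosines (0.44% of all cytosines) and above them at 0 (0.498% of all cytosines). The 6 were 4 in Hic1, 1 in Rarb and 1 in Dapk1. The Hic1 positions 75167272, 75167298 and 75167305 lie close enough to share reads, so they are not separate observations. Of the Hic1 ones, position 75167272 was at 100 and 87.5% with vehicle, 40.0 and 0% with C29, 64.7 and 87.0% with 5-azadC, and 20.8 and 48.1% with both drugs.

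**Figure D5:**
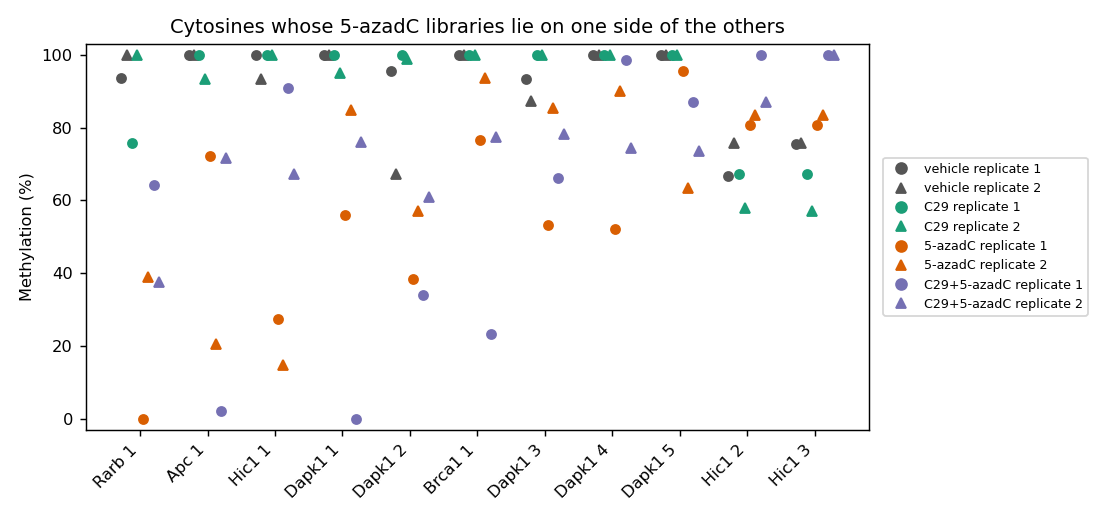
Methylation in percent of the 11 member cytosines at which the 4 libraries given 5-azadC lie on one side of the 4 others, 1 point per library, ordered by the difference and numbered within each gene. The first 9 are lower by 20.1 to 57.2 points with 5-azadC and the last 2, in Hic1, are higher by 20.9 and 22.1 points.

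Companions were 46 genes that act with the members in the p53, RB, BRCA, RASSF, retinoic acid, APC, TIMP, glutathione transferase, DAP kinase and HIC1 pathways. Of these, 37 had a tested start-site region, and 31 of the 37 were low in vehicle tumors, as were 74.2% over all genes. Rad51c, a recombination factor, was the highest of the 37 at 95.4% on 3 cytosines. The imprinted CDK inhibitor Cdkn1c followed at 78.4%, the cyclin Ccnd2 at 36.1% and Rassf2 at 31.5%. Gstp2, not tested with only 2 cytosines, was at 87.3%, and the placement of its reads is uncertain, as for Gstp1. Only Cdkn1c was separated by 5-azadC, where 2.15% of start-site regions of all genes were below. It was at 54.7% ± 4.53 (SD, n = 4) with 5-azadC and 72.0% ± 9.74 (SD, n = 4) without it, a difference of -17.3 points. Of 32 tested bodies, 7 (21.9%) were below with 5-azadC, by 7.69 to 19.0 points, against 18.1% over all genes. The median difference was -2.14 points, and -6.02 over all genes. The F test called 0 of these regions for either drug. C29 separated 2 start-site regions, Rb1 (-0.809 points) and Ctnnb1 (1.29 points), where 1.05% of all genes were below and 0.69% above. Both lie near 0, since Rb1 reached at most 1.63% and Ctnnb1 at most 2.39% in any library.

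Among 12319 start-site regions of all genes, those nearest to Timp3 by Euclidean distance over the 8 library values were Abca14 (distance 22.2 points), Tceanc (24.3) and Pdgfd (24.5). Nearest to Hic1 were Gja4 (16.7 points), Tex15 (18.3) and Fezf2 (21.5). Gja4, which encodes a gap junction protein, had a vehicle mean of 38.5% on 7 cytosines. These distances describe likeness of level over 8 libraries.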

How the data were processed

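Genomic DNA of NIC-5231 tumors was studied by RRBS in 4 groups of 2 libraries. Libraries were assigned to groups from the sample titles, and doses were taken from the study. Library preparation and sequencing were done by Diagenode. Per the labels, FastQC 0.11.8, Trim Galore 0.4.1, Bismark 0.20.0 and methylKit 1.7.0 were used with the mm10 build, while trimming and coverage settings were not stated. At every CpG cytosine the authors deposited the methylated fraction (0 to 1) and the read count, neither of them normalized, and their product gave whole methylated reads within 0.01 for at least 99.9997% of cytosines in each library.

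Cytosines with at least 10 reads in all 8 libraries were kept, the strands apart, and assigned to protein-coding genes of GENCODE M21. A region's level is the mean of its cytosines with equal weights, and regions with 3 or more were tested. RRBS reads without molecular identifiers are not independent molecules, so intervals and the cytosine test cover counting error only, and p-values over libraries measure the spread between pools of mice. The cytosine test was a logistic likelihood-ratio test of each treatment against vehicle over 567907 cytosines (q below 0.01, 25 points). Regions of all genes were tested by a logistic model with both drugs, an overdispersion-corrected F test and Benjamini-Hochberg adjustment (q below 0.05), and single regions by the two-sided exact permutation test of 4 libraries against 4. Python 3.11.15, NumPy 2.4.6, SciPy 1.17.1, pandas 2.3.3 and matplotlib 3.10.9 were used, with limma 3.58.1 in R 4.3.3 as an alternative. Simulated data with known shifts were used to check the tests. Of the body regions (10811), 200 were shifted by 35 points at overdispersions of 0.005, 0.02 and 0.08. The F test recovered 97.0%, 34.0% and 0% of them, and limma 100%, 88.5% and 0%. The median overdispersion was 0.0275 over the 9303 body regions with a vehicle mean of 20% or more. The logistic test recovered 67.5% of 200 shifted cytosines among 567907. That simulation had an overdispersion of 0, so it leaves out the spread between libraries. Alternatives were other coverage minimums, start-site windows, strand summing, pooled reads, other tests, a replicate block, and each library left out.

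The members and the list of companion genes were chosen with earlier results of these data known. The named cytosines are, in each zone, the highest in vehicle tumors, and the 10 largest differences among cytosines whose libraries with and without 5-azadC do not overlap; an eleventh is named because it completes the set. Reference sequence is from GRCm38.p6 and the RefSeq start sites from the same assembly. No sequence is shown for Apc. A result for 1 companion gene and 1 sequence window are not reported here, and windows that overlap a printed one were left out.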

Additional observations from a re-analysis of the deposited data

Results flagged for a closer look

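Within the 4 libraries with and the 4 without 5-azadC, 33 sets of regional values were checked for a library far from the 3 others by Dixon's ratio, and 7 stood apart. Chance gives about 1 in 20 for values without ties, but in 5 of the 7 the 3 other libraries were at 0%, so that any value above 0 stands apart and that share does not apply. In Rassf1, C29 replicate 2 was at 2.57% in the start-site region while the 3 other libraries without 5-azadC were at 0%, and vehicle replicate 1 was at 8.60% in the body beside 7.60 to 7.69%. In Brca1, C29 replicate 1 (6.25%) and the combination replicate 2 (5.71%) stood above start-site values of 0%, each on 2 cytosines. In Gstp1, 5-azadC replicate 2 (3.43%) and C29 replicate 2 (0.641%) stood above start-site values of 0% on 3 cytosines. These 6 values concern regions that are low in every library.

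The single shared body cytosine of Timp3, 966 bp downstream of the start, was at 82.9% in C29 replicate 1, at 13.8% in C29 replicate 2 and at 0% in the 6 other libraries. The lowest coverage there was 18 reads.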

How the results depend on the processing

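Of the differences of single regions and cytosines, 613 alternative values moved by less than the spread between libraries and 13 by more; 0 of those whose groups did not overlap changed direction. Counts depended on coverage, the minimum difference and the test. In this section a percentage in parentheses after a count is the share of all features, not of the members. The counts of the cytosine F test and of the replicate block are given without it. With a minimum of 5 reads, C29 had 60 (11.1%) and 5-azadC 70 (13.4%) of 471 member cytosines called. With a minimum of 20 reads the calls were 17 (8.47%), 15 (11.2%) and 27 (11.4%) of 129 for C29, 5-azadC and both drugs, and 5 cytosines (2.10%) and 1 of 4 bodies (16.8%) were below with 5-azadC. At 10 points the calls were 75 (22.9%), 91 (27.0%) and 108 (25.9%) of 330. With the overdispersion-corrected F test they were 0, 0 and 0, where 2 libraries against 2 could hardly give a call. With both treated libraries required on one side of both vehicle libraries, the combination had 44 (7.92%). With 500 bp upstream and 200 bp downstream as the start-site region, 1 of 7 bodies was below (15.5%). The logistic test without overdispersion called 1 of 6 bodies for 5-azadC (1.31%).

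With 1 library left out, C29 calls ranged from 33 to 59 (59 without vehicle replicate 1, 51 without C29 replicate 1, against 14.9% and 14.3% of all cytosines) and 5-azadC calls from 43 to 70 (70 without 5-azadC replicate 2, against 17.6%). Cytosines below with 5-azadC ranged from 9 to 18 (14 without C29 replicate 1, 15 without C29 replicate 2, 16 without 5-azadC replicate 2, 18 without combination replicate 1 and 14 without combination replicate 2), where 2.35%, 2.52%, 2.52%, 2.94% and 2.94% of all cytosines were below. Without 5-azadC replicate 2, 4 of 6 bodies (22.0% of all genes) and 1 of 7 start-site regions (3.75%) were below with 5-azadC, where the ranges were 2 to 4 and 0 to 1. With C29, start-site regions and bodies ranged from 0 to 1, with 1 of each without 5-azadC replicate 1 (2.65% and 2.16% of all genes). The upstream cytosines of Timp3 were below with C29 without vehicle replicate 1 (-11.6 points) and without C29 replicate 1 (-12.8 points). Without 5-azadC replicate 1 the Hic1 start-site region was below with C29 (-19.4 points). For Timp3 and Hic1 the library left out was one that had overlapped, so these separations follow from leaving it out. The cause of the differences was not tested. Samples that share a replicate number did not deviate together (correlations from -0.0208 to 0.0366 over 23130 regions), and with the replicate block 33, 42 and 66 cytosines and 0 regions were called. RefSeq start sites, chosen after the data were seen, changed no direction. The Rarb body turned to 13.0 points on 4 cytosines at the minimum of 20 reads.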

Other observations

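Some body cytosines of the members were higher in treated than in vehicle libraries; they were picked after their values were seen. In a Dapk1 intron, 2 cytosines at 60717583 to 60717609 averaged 5.88 and 0% with vehicle, 24.6 and 36.0% with C29, 26.5 and 52.0% with 5-azadC, and 67.7 and 13.2% with both drugs, so that all 6 treated libraries were above both vehicle libraries. In a Rarb intron, 2 cytosines at 16602700 to 16602711 averaged 16.7 and 59.5% with vehicle, 100 and 27.8% with C29, 100 and 98.9% with 5-azadC, and 72.1 and 62.2% with both drugs. The 4 libraries given 5-azadC were above both vehicle libraries there, while C29 replicate 1 was as high as 5-azadC replicate 1.

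In the body of Cdkn2a, reads of the cytosines with 10 or more reads in a single library were methylated at 68.1 and 78.7% with vehicle and at 9.92 to 33.9% in the 6 treated libraries. Each value rests on 5 to 18 cytosines that differ between libraries. The 3 body cytosines with 5 or more reads in all 8 libraries were at 0 and 80.6% with vehicle and at 0 to 60.0% in the treated libraries.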
